A study of Mus musculus with 4 samples.

Results

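The genes described here are Cd14 and the Toll-like receptor system of the skin: the co-receptors Cd14 and Ly96, the receptors Tlr1, Tlr2, Tlr3, Tlr4, Tlr6, Tlr7 and Tlr13, and the adaptor Myd88. They were taken as the rows of the deposited gene table with these symbols, which gave 10 genes of 24441. All 10 genes had at least 1 FPKM in at least 2 of the 4 libraries, the level required for a test. Tlr6 reached it only through the 2 WT libraries and so could only be lower in the knockout.

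Toll-like receptors bind molecules of microbes, and also proteins set free from injured tissue. Cd14 sits on the outer face of monocytes and macrophages, binds bacterial lipopolysaccharide and hands it to the complex of Tlr4 and Ly96, also called MD-2. Tlr2 works as a pair with Tlr1 or Tlr6 on bacterial lipoproteins, whereas Tlr3, Tlr7 and Tlr13 sit in endosomes and sense RNA. Most of these receptors signal through Myd88 to NF-kB, and Tlr3 signals through another adaptor, Ticam1. In skin, macrophages and other myeloid cells carry many of them, and keratinocytes and fibroblasts carry some.

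RNA was measured in back skin of 8-week-old female C57BL/6 mice that had been given bleomycin (BLM) under the skin every other day for 28 days, a treatment that makes the skin fibrotic and is used as a model of scleroderma. The GSDMD KO group lacks gasdermin D, the protein that opens pores in the membrane during pyroptosis. These mice came from C57BL/6 zygotes injected with Cas9 mRNA and a guide RNA, and the deleted exons are not given in the sources used here. Each group had 2 libraries, WT and GSDMD KO, and both groups had received BLM, so that the comparison is of genotype under BLM and not of BLM with saline. Nothing in the labels gives litters, and p-values measure the spread between these 4 libraries. Values are FPKM, fragments per kilobase of transcript scaled to a fixed number of mapped fragments.

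Gsdmd itself stood at 14.0 and 18.2 FPKM in the WT libraries and at 3.53 and 2.26 FPKM in the KO libraries, a log2 fold change of -2.14 (unadjusted p 0.000692, adjusted p 0.248 in limma). Judged from the step that 1 fragment makes in low genes, the libraries held roughly 12800000 to 17400000 fragments, the fewest in KO replicate 2. KO replicate 2 stood apart: its summed fibroblast markers were 32.7 FPKM against 237 to 518 in the other libraries, and its endothelial markers 17.4 against 97.3 to 153. It was also the only library with genes of chromosome Y above 0, 4 of the 15 in the table with 1.78 FPKM in all, although every mouse is labelled female. KO replicate 1 held 343 FPKM of hair follicle markers, against 3.75 to 21.4 in the others. The part that these differences have in the results below was not tested, and log2 fold changes of single genes that move by over 1.5 times without KO replicate 2 are also given without it.

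**Figure D1:**
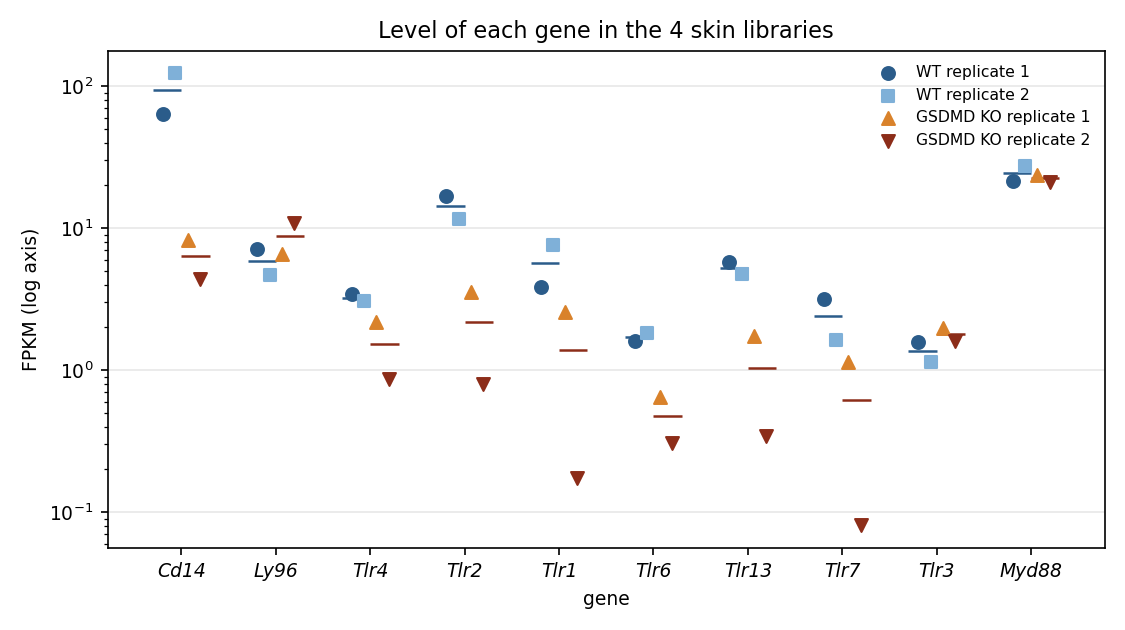
FPKM of the 10 genes (log axis) in the 4 libraries, with short lines at the mean of each group. Both KO libraries lie below both WT libraries for 7 genes, KO replicate 2 is the lowest library for each of those 7, and Ly96 and Myd88 overlap between the groups.

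In WT skin Cd14 was the most abundant of the 10 transcripts and Tlr3 the least; in KO skin Myd88 was the most abundant and Cd14 stood beside Ly96. In all, 7 of the 10 genes, each a receptor or co-receptor, were lower in both KO libraries than in either WT library: Cd14, Tlr1, Tlr2, Tlr4, Tlr6, Tlr7 and Tlr13. Among all 13027 tested genes 20.5% had this arrangement. Without Tlr6, which could only be lower, the count was 6 of 9 and the median log2 fold change of the 9 genes -1.12. Tlr3 was the 1 gene of the 10 with both KO libraries above both WT libraries, an arrangement seen in 35.3% of the tested genes.

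None of the 10 genes passed limma at an adjusted p of 0.05 with a log2 fold change above 1 in size, and 0% of the 13027 genes did. At an unadjusted p of 0.05, 5 of the 10 were lower by more than 1 on the log2 scale, namely Cd14, Tlr1, Tlr2, Tlr7 and Tlr13, where 4.14% of tested genes were lower by this rule. Of the 10 genes 0 were higher by the same rule, beside 6.16% of tested genes. The median log2 fold change of the 10 genes was -1.003, beside 0.11 for all tested genes. Because 1 is added before the log2 transform, fold changes of genes near or under 1 FPKM come out smaller than their ratios.

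The number of adjusted calls depended on which KO library was used. Without KO replicate 1, 6 of the 10 genes (Cd14, Tlr1, Tlr2, Tlr4, Tlr7 and Tlr13) were lower at an adjusted p of 0.05 in limma, with 9.20% of all tested genes called lower. Without KO replicate 2 only Cd14 was called, with 0.115% of tested genes called lower. With either WT library left out, 0 of the 10 were called. Each of these fits has a group with a lone library, which is assumed to vary as much as the other group does. The median of the 10 genes was -1.40 when KO replicate 1 was left out and -0.67 when KO replicate 2 was.

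**Figure D2:**
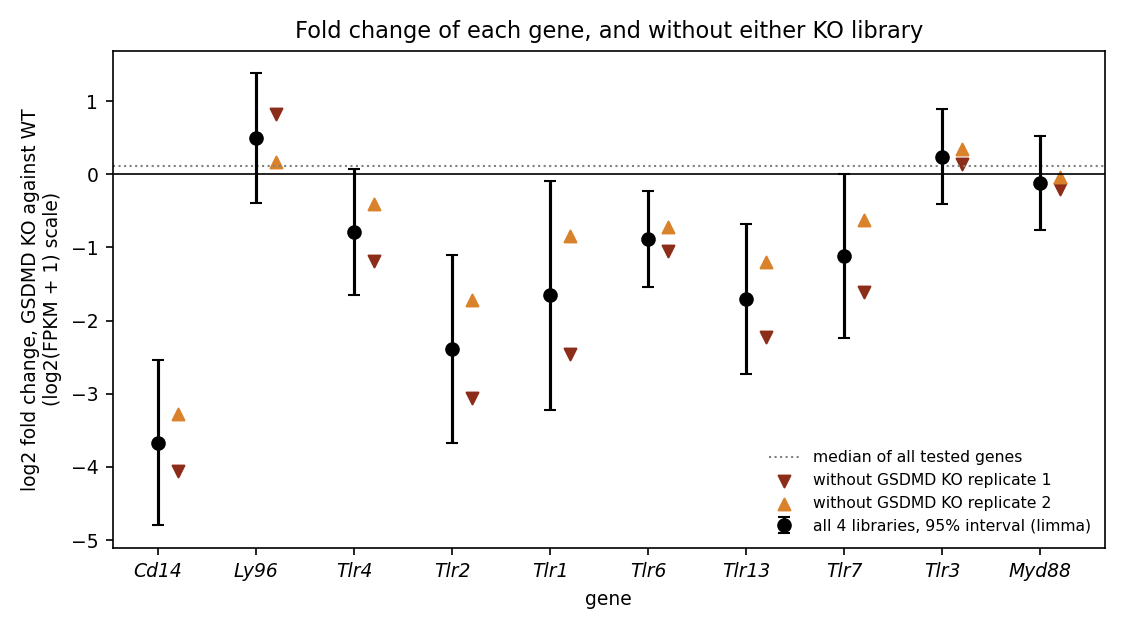
Log2 fold change of each gene, GSDMD KO against WT on the log2(FPKM + 1) scale, with its 95% interval from limma, and the same value without either KO library (triangles). Cd14 is lowest at -3.67, and for each of the 7 lower genes the value without KO replicate 1 is further from 0 than the value without KO replicate 2.

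Among the proteins that bind lipopolysaccharide, Cd14 differed most. It was at 63.8 and 123 FPKM in the WT libraries and at 8.26 and 4.38 FPKM in the KO libraries, means of 93.5 ± 42.0 and 6.32 ± 2.75 (SD, n = 2 each). Even the higher KO library was far below the lower WT library, and the mean was 14.8-fold higher in WT. The log2 fold change was -3.67 (SE 0.44, 95% interval -4.80 to -2.54), with an unadjusted p of 0.000373 and an adjusted p of 0.248 in limma. Leaving out KO replicate 1 gave -4.06 (adjusted p 0.0016) and leaving out KO replicate 2 gave -3.28 (adjusted p 0.0293). Leaving out WT replicate 1 or WT replicate 2 gave -4.14 and -3.20, with adjusted p of 0.471 and 0.941 in limma. The gene has 2 exons and lies on the minus strand at chr18:36884718-36886469 of mm9.

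Ly96, the small secreted protein that binds lipopolysaccharide together with Tlr4, did not follow Cd14. Ly96 was at 7.09 and 4.65 FPKM in the WT libraries, against 6.58 and 10.9 FPKM in the KO libraries, so that the groups overlapped and the highest value was in KO replicate 2. Its fold change on the log2 scale was 0.49 (95% interval -0.39 to 1.38) with an adjusted p of 0.468 in limma, 0.17 without KO replicate 2 and 0.23 without WT replicate 2. Ly96 lies at chr1:16678537-16699686 of mm9, plus strand.

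Tlr4, the signalling receptor of the complex, was at 3.41 and 3.06 FPKM in the WT libraries, against 2.20 and 0.871 FPKM in the KO libraries. Both KO libraries were lower, most of all KO replicate 2. Its log2 fold change was -0.79 (95% interval -1.65 to 0.07; adjusted p 0.310 in limma). Leaving out KO replicate 1 made it -1.18 (adjusted p 0.0449), and leaving out KO replicate 2 made it -0.41. Tlr4 lies at chr4:66488585-66507615 of mm9, plus strand.

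The 3 parts of the complex therefore stood in other proportions in the 2 genotypes. The ratio of Cd14 to Tlr4 in FPKM was 18.7 and 40.2 in WT and 3.76 and 5.03 in KO. The ratio of Ly96 to Tlr4 was 2.08 and 1.52 in WT and 2.99 and 12.6 in KO. Neither ratio overlapped between groups; with 2 libraries against 2, an exact two-sided permutation test cannot give a p below 0.333.

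Tlr2 was the most abundant Toll-like receptor in both WT libraries. It was at 16.9 and 11.5 FPKM in the WT libraries, against 3.55 and 0.798 FPKM in the KO libraries, means of 14.2 ± 3.82 and 2.17 ± 1.94 (SD, n = 2 each). Both KO libraries were below WT, and KO replicate 2 was the lower. The mean was 6.55-fold higher in WT and the log2 fold change -2.39 (SE 0.50, 95% interval -3.68 to -1.10), with an unadjusted p of 0.00486 and an adjusted p of 0.248 in limma. With KO replicate 1 left out the change was -3.06 (adjusted p 0.00223), and with KO replicate 2 left out -1.72 (adjusted p 0.139). Tlr2 lies at chr3:83640194-83645530 of mm9, minus strand.

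Tlr1 and Tlr6, the partners of Tlr2, lie beside each other on the minus strand, Tlr1 at chr5:65315919-65324797 and Tlr6 at chr5:65344334-65351273 of mm9. Tlr1 was at 3.83 and 7.61 FPKM in the WT libraries, against 2.58 and 0.174 FPKM in the KO libraries. The value of KO replicate 1 was nearer to the lower WT library than to KO replicate 2, and that of KO replicate 2 came from an estimated 5.90 fragments. The log2 fold change of Tlr1 was -1.65 (95% interval -3.22 to -0.09; unadjusted p 0.0419, adjusted p 0.280 in limma), -2.46 without KO replicate 1 (adjusted p 0.00784) and -0.85 without KO replicate 2.

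Tlr6 was at 1.61 and 1.82 FPKM in the WT libraries, against 0.651 and 0.305 FPKM in the KO libraries. Its 2 groups were well apart although all 4 values were low. This gave a log2 fold change of -0.89 (95% interval -1.54 to -0.23; unadjusted p 0.0176, adjusted p 0.248 in limma), and -0.72 to -1.05 with either KO library left out. The ratio of Tlr1 to Tlr6 was 2.38 and 4.19 in WT and 3.97 and 0.571 in KO, and it overlapped between the groups.

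Reads of these 2 genes can be confused, since their transcripts are partly identical. The run of 229 bases below stands in the coding sequence of both, in exon 3 of 3 of Tlr1 (chr5:65316776-65317004) and exon 2 of 2 of Tlr6 (chr5:65345067-65345295), minus strand of mm9. It is printed because a fragment inside it fits both genes, and their FPKM depend on how such fragments were divided.
Tlr1 and Tlr6: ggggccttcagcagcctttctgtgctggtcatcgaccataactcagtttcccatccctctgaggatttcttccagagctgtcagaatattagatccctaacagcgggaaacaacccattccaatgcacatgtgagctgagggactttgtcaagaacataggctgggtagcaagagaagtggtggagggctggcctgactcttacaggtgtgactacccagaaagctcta
Of the 150-base windows of the longest Tlr1 and Tlr6 transcripts, 5.55% and 5.66% were shared, and of the 50-base windows 17.4% and 17.8%. The longest coding transcripts of the other 8 genes shared 0 windows of either length with coding transcripts of any other gene. For Myd88 the transcript searched had 1960 bases, and its longest annotated one, of 2458 bases, was not searched.

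Among the endosomal receptors Tlr13, a mouse receptor of bacterial ribosomal RNA, had the clearest separation. It was at 5.77 and 4.78 FPKM in the WT libraries, against 1.73 and 0.343 FPKM in the KO libraries. Both WT libraries were close to each other and both KO libraries lay below them. The log2 fold change was -1.71 (SE 0.40, 95% interval -2.73 to -0.68; unadjusted p 0.0077, adjusted p 0.248 in limma). KO replicate 2 alone gave -2.22 (adjusted p 0.00478), and KO replicate 1 alone gave -1.20. The gene lies at chrX:103338614-103355832 of mm9, plus strand.

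Tlr7, a sensor of single-stranded RNA, was at 3.18 and 1.63 FPKM in the WT libraries, against 1.14 and 0.0808 FPKM in the KO libraries. WT replicate 2 was nearer to KO replicate 1 than to WT replicate 1, and KO replicate 2 held an estimated 4.02 fragments. This gave a log2 fold change of -1.12 (95% interval -2.24 to -0.000258; unadjusted p 0.04996, adjusted p 0.292 in limma), -1.62 without KO replicate 1 (adjusted p 0.0271) and -0.63 without KO replicate 2. Tlr7 lies at chrX:163742858-163768503 of mm9, minus strand.

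Tlr3, a sensor of double-stranded RNA, did not share the lower level. It was at 1.58 and 1.15 FPKM in the WT libraries, against 1.99 and 1.60 FPKM in the KO libraries. Both KO libraries were above both WT libraries, KO replicate 2 by a narrow margin. The difference, 0.24 on the log2 scale (95% interval -0.40 to 0.89; adjusted p 0.610 in limma), did not exceed the spread between libraries, and it was 0.11 without WT replicate 2. Tlr3 lies at chr8:46481019-46495893 of mm9, minus strand.

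Myd88, the adaptor on which the Tlr2, Tlr4, Tlr7 and Tlr13 signals converge, was at 21.4 and 27.5 FPKM in the WT libraries, against 23.8 and 21.0 FPKM in the KO libraries. The groups overlapped, with the highest value in WT replicate 2 and the lowest in KO replicate 2. Its log2 fold change was -0.11 (95% interval -0.76 to 0.53; adjusted p 0.816 in limma), 0.06 without WT replicate 2 and -0.03 without KO replicate 2. Myd88 lies at chr9:119245106-119249158 of mm9, minus strand, and 67 bases of an exon that GENCODE places upstream of this interval overlap Acaa1a on the other strand. The files do not say whether strand was used in counting, so reads of that stretch could belong to either gene.

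Promoter sequence was taken from RefSeq (GRCm38.p6) and matched to mm9. It was held for 6 of the 10 genes (Tlr1, Tlr2, Tlr3, Tlr6, Tlr13 and Myd88), without entries for Cd14, Ly96, Tlr4 and Tlr7. In the 250 bases before each start site 3 motifs were searched on both strands, GGGNNTTCC of NF-kB, GAGGAAG of the myeloid factor PU.1, and GAAANNGAA of the interferon response; they were chosen after the sequences had been seen. Of all 32851 promoters of this length 4.98% held the first, 10.6% the second and 7.13% the third. The stretches outside annotated exons are printed as examples, 1 for each motif, with the matches in capitals: Tlr2 at chr3:83645690-83645780 (minus strand), Tlr13 at chrX:103338364-103338542 (plus strand) and Myd88 at chr9:119249160-119249386 (minus strand).
Tlr2: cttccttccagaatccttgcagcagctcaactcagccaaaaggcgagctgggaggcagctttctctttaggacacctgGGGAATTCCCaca
Tlr13: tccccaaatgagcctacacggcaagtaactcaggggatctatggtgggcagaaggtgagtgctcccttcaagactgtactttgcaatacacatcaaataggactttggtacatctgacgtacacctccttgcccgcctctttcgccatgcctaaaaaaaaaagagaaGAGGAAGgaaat
Myd88: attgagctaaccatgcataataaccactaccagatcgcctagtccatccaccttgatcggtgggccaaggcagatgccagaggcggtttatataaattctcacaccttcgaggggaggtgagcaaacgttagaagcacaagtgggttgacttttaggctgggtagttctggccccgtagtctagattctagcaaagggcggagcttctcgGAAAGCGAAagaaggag
The capitals in Tlr2 are a pair of NF-kB matches that overlap on opposite strands, starting 172 and 171 bases before the start site. Tlr13 held the PU.1 letters 83 bases before its start site, and Myd88 the interferon letters 40 bases before. Among the stretches not printed, Tlr6 also held the interferon letters, in 2 overlapping matches starting 115 and 109 bases before one of its start sites, and Tlr1 held the PU.1 letters 23 bases before one of its start sites; Tlr3 held none of the 3. A match says only that these letters are present.

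The make-up of the receptor transcripts differed between the libraries. Summed over 12 Toll-like receptors, the level was 41.8 and 38.6 FPKM in the WT libraries, against 17.2 and 5.36 FPKM in the KO libraries. Tlr2 made up 40.5% and 29.9% of that sum in WT and 20.6% and 14.9% in KO, ranking first in 3 libraries and below Tlr3 and Tlr4 in KO replicate 2. Tlr3 made up 3.78% and 2.97% in WT and 11.6% and 29.8% in KO, where it ranked first in KO replicate 2. Tlr4 made up 8.16% and 7.95% in WT and 12.8% and 16.2% in KO. Tlr5 made up 1.86% and 3.09% in WT and 5.25% and 14.5% in KO. The shares of Tlr2, Tlr13 and Tlr11 were lower in both KO libraries and those of Tlr3, Tlr4, Tlr5 and Tlr12 higher, while the shares of Tlr1, Tlr6, Tlr7, Tlr8 and Tlr9 overlapped between the genotypes. The order of Tlr11 and Tlr12 rests on very few fragments. In KO replicates 1 and 2 an estimated 0.98 and 0 fragments were from Tlr11, and 2.99 and 0.99 from Tlr12.

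**Figure D3:**
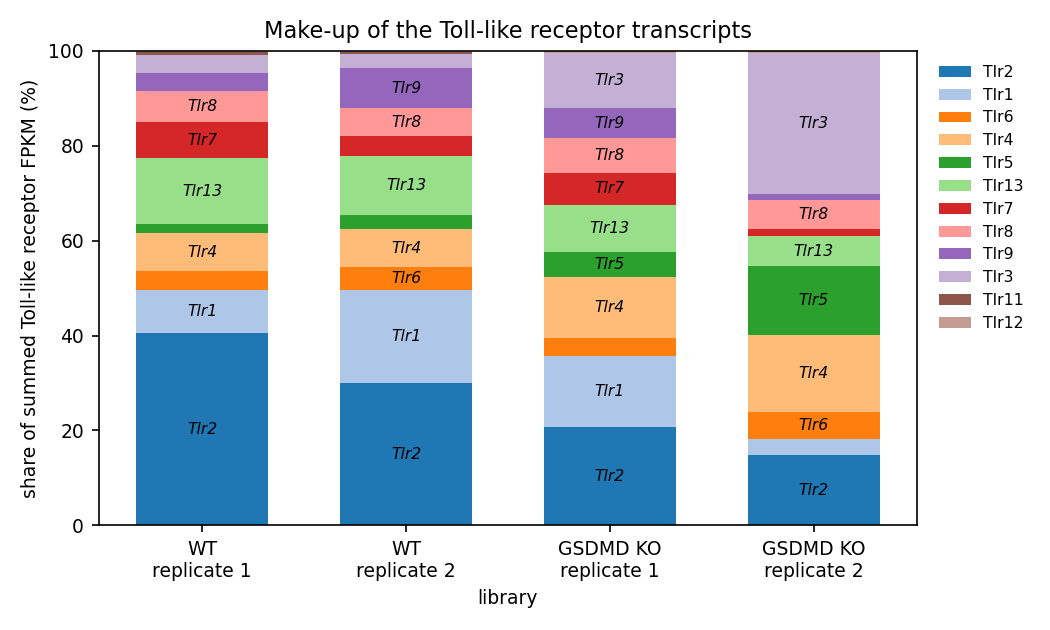
Share of each of 12 Toll-like receptors in their summed FPKM (%), 1 bar per library. The Tlr2 share runs from 40.5% in WT replicate 1 to 14.9% in KO replicate 2, and the Tlr3 share from 2.97% in WT replicate 2 to 29.8% in KO replicate 2.

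Of the 5 receptors outside the list, Tlr8 and Tlr9 could be tested. Tlr8, an endosomal receptor, was at 2.75 and 2.25 FPKM in the WT libraries, against 1.26 and 0.325 FPKM in the KO libraries, a log2 fold change of -1.01 (adjusted p 0.264 in limma). Tlr9, which senses DNA, was at 1.62 and 3.29 FPKM in the WT libraries, against 1.09 and 0.0667 FPKM in the KO libraries, a log2 fold change of -1.17 (adjusted p 0.286 in limma). The value of Tlr9 in KO replicate 2 came from an estimated 2.96 fragments. In both genes the KO libraries lay below the WT libraries, as in 20.5% of all tested genes. Without KO replicate 2 the changes were -0.63 for Tlr8 and -0.68 for Tlr9. Tlr5, the flagellin receptor, was at 0.777 to 1.19 FPKM with overlapping groups. Tlr11 and Tlr12 did not exceed 0.246 FPKM.

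In order of level, the neighbours Ly96, Tlr1 and Tlr13 overlapped in WT skin, as did Tlr4, Tlr7 and Tlr6, whereas Cd14, Myd88 and Tlr2 were each apart from the next gene below. In KO skin only Myd88 stood above the next gene without overlap, apart from the step between Cd14 and Tlr2. The 7 genes from Tlr2 down to Tlr6 in that order overlapped with their neighbours there.

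Markers of macrophages and of leukocytes as a whole moved with the 7 lower genes. The 12 macrophage markers summed to 2110 and 2149 FPKM in the WT libraries, against 904 and 102 FPKM in KO. All 12 had a lower mean in KO (41.4% of all tested genes by the sign of the change), 7 of them at an unadjusted p of 0.05 (4.14% of all tested genes). None was at 0 in any library. Csf1r, the receptor of macrophage colony-stimulating factor, was at 34.6, 46.7, 16.3 and 1.90 FPKM in WT replicates 1 and 2 and KO replicates 1 and 2, and Adgre1, which encodes F4/80, was in the same order at 16.2, 20.3, 8.59 and 0.837 FPKM. The 8 leukocyte markers summed to 490 and 583 FPKM in the WT libraries, against 260 and 133 FPKM in KO. Arhgdib, named after its values were seen, made up much of these sums at 98.7, 120, 82.6 and 104 FPKM, and the other 7 markers summed to 391 and 463 FPKM in WT and to 177 and 28.5 FPKM in KO. Ptprc, which encodes CD45, was at 10.6, 8.93, 3.98 and 1.00 FPKM, and Cd53, a leukocyte tetraspanin, at 23.9, 17.1, 8.15 and 1.12 FPKM. The 10 neutrophil markers summed to 767 and 634 FPKM in the WT libraries, against 314 and 152 FPKM in KO, nearly all of it from S100a8 and S100a9. The other 8 summed to 14.9 and 24.9 FPKM in WT and to 10.3 and 4.56 FPKM in KO, and 6 of the 10 could be tested. Of these 6, 5 had both KO libraries below both WT libraries. The exception was Cxcr2, whose KO replicate 1 value of 1.76 FPKM lay between its WT values. Camp, Ltf and Ngp were too low to test and, like Cxcr2, were named after their values were seen. Camp reached 2.51 FPKM in KO replicate 1, with WT values of 0.315 and 0.348. Ltf had the higher mean in KO (0.586, WT 0.416), and Ngp peaked in KO replicate 2 (0.395). In bulk skin, fewer cells of a type and less RNA per cell cannot be told apart, and the part of these markers in the levels of the 10 genes was not tested beyond the ratios that follow.

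Set against Ptprc in the same library, the 10 genes were of 3 kinds. Cd14, Tlr2 and Tlr13 stayed lower in both KO libraries: the ratio of Cd14 to Ptprc was 6.01 and 13.8 in WT and 2.08 and 4.36 in KO, that of Tlr2 was 1.59 and 1.29 against 0.891 and 0.795, and that of Tlr13 was 0.543 and 0.535 against 0.435 and 0.341. The ratios of Tlr1, Tlr6 and Tlr7 overlapped between the groups. Those of Ly96, Tlr3, Tlr4 and Myd88 were higher in both KO libraries. With 2 against 2 libraries the exact test gives no p under 0.333 for any of these ratios.

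The reference gene mattered for the first kind. Set against Csf1r, the ratio of Cd14 was 1.84 and 2.64 in WT and 0.507 and 2.31 in KO, that of Tlr2 was 0.489 and 0.247 against 0.218 and 0.421, and that of Tlr13 was 0.167 and 0.102 against 0.106 and 0.181. All 3 ratios overlapped between the groups, KO replicate 2 lying within the WT range for Cd14 and Tlr2. Against the mean log2 level of the 8 leukocyte markers, the difference of KO from WT was -1.77 for Cd14, -0.49 for Tlr2 (-0.18 without WT replicate 1 and -0.81 without WT replicate 2) and 0.19 for Tlr13 (-0.40 with a pseudocount of 0.1).

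**Figure D4:**
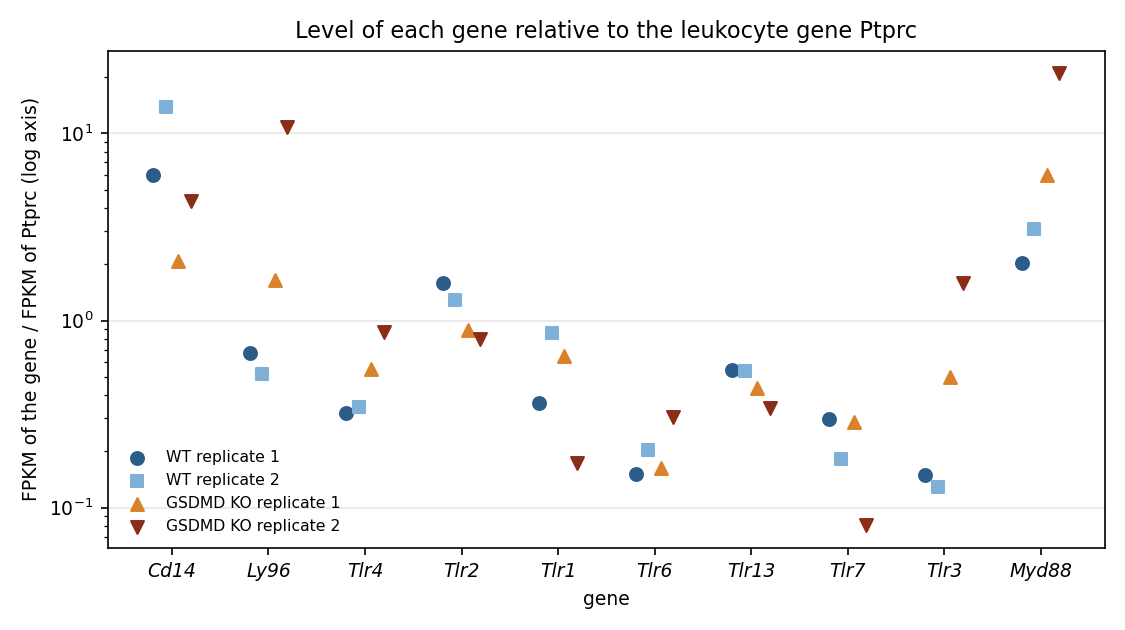
FPKM of each gene divided by the FPKM of Ptprc in the same library (log axis). Cd14, Tlr2 and Tlr13 lie lower in both KO libraries, Ly96, Tlr4, Tlr3 and Myd88 higher, and Tlr1, Tlr6 and Tlr7 overlap.

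The marker lists of other cells did not all follow the same course. Keratinocyte markers summed to 5012 and 3577 FPKM in the WT libraries, against 10794 and 5254 FPKM in KO, with 4 of 8 higher at an unadjusted p of 0.05 (6.16% of all tested genes). The list did not rise as a whole. In 4 of the 8 both KO libraries were above both WT libraries (35.3% of all tested genes), and 1 had a log2 fold change below 0. Fibroblast markers were lower only in KO replicate 2: with that library left out, their median log2 fold change went from -0.96 to 0.77, and that of the 7 endothelial markers from -1.16 to -0.09. T cell markers summed to 15.3 and 13.4 FPKM in the WT libraries, against 13.4 and 4.28 FPKM in KO. Mast cell markers ran from 11.3 FPKM in KO replicate 2 to 99.9 FPKM in KO replicate 1. Adipocyte markers ran from 326 FPKM in KO replicate 2 to 8493 FPKM in WT replicate 2. Skeletal muscle markers, from 13404 to 22215 FPKM, were lower in both KO libraries. Dendritic cell markers summed to at most 13.9 FPKM, B cell markers to at most 3.19 FPKM and red cell markers to at most 128 FPKM.

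Proteins that help the receptors fold, travel or bind showed a mixed picture with several low members. Of the 10 accessory genes 8 had a log2 fold change below 0, as 41.4% of all tested genes did, 3 of them were lower at an unadjusted p of 0.05 (4.14% of all tested genes), and the median was -1.17 (-0.37 without KO replicate 2). Unc93b1, which carries the endosomal receptors out of the endoplasmic reticulum, was at 53.6 and 95.3 FPKM in the WT libraries, against 32.01 and 6.91 FPKM in the KO libraries, a log2 fold change of -2.17 (adjusted p 0.264 in limma). Slc15a3, a peptide and histidine transporter of endolysosomes, was at 14.0 and 23.4 FPKM in the WT libraries, against 3.94 and 3.29 FPKM in the KO libraries, a change of -2.06 (adjusted p 0.248 in limma). Ly86, the MD-1 protein, was at 31.3 and 37.95 FPKM against 22.3 and 1.35 FPKM. Its receptor Cd180, a Toll-like protein of the cell surface, was at 4.63 and 2.76 FPKM against 1.28 and 0.104 FPKM, log2 fold changes of -2.26 and -1.54. In each of these 4 genes both KO libraries were below WT, as in 20.5% of all tested genes. The change of Slc15a3 was -1.95 without KO replicate 2, whereas for the other 3 that library carried much of it: without it Ly86 was at -0.61, Unc93b1 at -1.14 and Cd180 at -1.01.

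Adaptors and kinases between receptor and NF-kB, like Myd88, had a median change near 0. Of 16 tested, 10 had a lower and 6 a higher mean in KO (41.4% and 58.6% of all tested genes by the sign of the change), and the median was -0.06. At an unadjusted p of 0.05, 1 was lower and 1 higher, near the shares of all tested genes (4.14% and 6.16%). Pik3ap1, an adaptor to phosphoinositide 3-kinase, was at 4.498 and 6.04 FPKM in the WT libraries, against 2.36 and 0.425 FPKM in the KO libraries (log2 fold change -1.51). Peli1, a ubiquitin ligase, was at 10.5 and 5.67 FPKM in the WT libraries, against 15.8 and 19.05 FPKM in the KO libraries (log2 fold change 1.07). Both had groups that did not overlap, as had 20.5% of all tested genes with KO lower and 35.3% with KO higher. Ticam2, the bridging adaptor of Tlr4, had a change of -0.87, but it reached the level for a test only through WT and so could only be lower (9 of 15 had a lower mean without it). Tab3, a partner of the kinase Tak1, had a change of 0.61. Without KO replicate 2 the change of Pik3ap1 was -0.89, and without WT replicate 2 that of Peli1 was 0.67.

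The 8 tested negative regulators had a median of -0.04, and none passed an unadjusted p of 0.05 with a change above 1. Their most different members were Il1rl1 at -0.49, Tnfaip3 (the A20 ubiquitin editor) at -0.45, Sigirr at 0.31 and Lgals3 at -0.21; without KO replicate 2 Il1rl1 was at -0.12 and Lgals3 at 0.06. Of 15 tested NF-kB and interferon regulatory factor genes 3 were lower and 1 higher at an unadjusted p of 0.05 (4.14% and 6.16% of all tested genes), with a median of -0.28 (-0.08 without KO replicate 2). The 3 lower genes were interferon regulatory factors: Irf7 at 80.4 and 132 FPKM in the WT libraries, against 40.8 and 16.8 FPKM in the KO libraries (-1.93), Irf8 at 9.48 and 14.5 against 6.69 and 1.796 FPKM (-1.46), and Irf5 at 27.0 and 26.4 against 15.5 and 9.38 FPKM (-1.08). The higher gene was Nfkbiz, an inducible NF-kB cofactor, at 8.81 and 8.98 FPKM in the WT libraries, against 15.3 and 30.03 FPKM in the KO libraries (1.18). Leaving out KO replicate 2 brought Irf8 to -0.73 and Nfkbiz to 0.72.

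Genes that macrophages transcribe after Toll-like receptor signals were mostly lower in KO skin than in WT skin by their values. Of the 13 tested, Nos2 and Ptgs2, named after their values were seen, reached the level for a test only through WT and so could only be lower. Of the other 11, all 11 had a lower mean in KO, 8 were lower at an unadjusted p of 0.05 with a change above 1 (4.14% of all tested genes), and in 10 each KO library was below either WT library (20.5% of all tested genes). The median of these 11 was -2.66, and with Nos2 and Ptgs2 that of the 13 was -1.45 (-1.27 without KO replicate 2). Cxcl2, a neutrophil-attracting chemokine, was at 38.8 and 46.6 FPKM in the WT libraries, against 2.09 and 3.63 FPKM in the KO libraries (log2 fold change -3.52, adjusted p 0.190 in limma). Il1b, the cytokine interleukin-1 beta, was at 35.7 and 59.8 FPKM in the WT libraries, against 2.49 and 4.65 FPKM in the KO libraries (-3.41). Ccl4, a chemokine, was at 35.1 and 37.9 FPKM in the WT libraries, against 3.28 and 2.66 FPKM in the KO libraries (-3.24). For Cxcl2 and Il1b, KO replicate 1 was the lower library, unlike in the 7 receptor and co-receptor genes. Saa3, an acute-phase protein, was at 687 and 4598 FPKM in the WT libraries, against 375 and 23.4 FPKM in the KO libraries (-4.21, and -2.24 without KO replicate 2), with a wide spread in both groups.

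The interleukin-1 receptor family, which shares Myd88 with the Toll-like receptors, was covered by a list of 5 receptor chains and the ligands Il33 and Il1f6 (now Il36a). Of these 7 genes 6 had a log2 fold change above 0, as 58.6% of all tested genes did, and the median was 0.57. None passed an unadjusted p of 0.05 with a change above 1, beside 4.14% lower and 6.16% higher among all tested genes. Il1rl2, the interleukin-36 receptor, was at 3.08 and 1.94 FPKM in the WT libraries, against 5.25 and 5.62 FPKM in the KO libraries (log2 fold change 0.89). Il1rap, the shared co-receptor, had a change of 0.63 and Il33, an alarmin of epithelial cells, one of 0.77 (0.27 without WT replicate 2 and 1.28 without WT replicate 1). The median gene itself, also named after its values were seen, was Il1f6, at 14.3 and 4.03 FPKM in the WT libraries, against 39.25 and 3.20 FPKM in the KO libraries, high in KO replicate 1 only (a change of 0.57, which was 2.20 without KO replicate 2, -1.06 without KO replicate 1 and -0.23 without WT replicate 2). Il18rap was at -0.83 and had reached the level for a test only through WT, and Il1rl1, a receptor of the same family listed above among the negative regulators, was at -0.49.

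Host proteins described as ligands of Tlr2 or Tlr4 gave 8 of 10 with a log2 fold change below 0, 3 of them at an unadjusted p of 0.05, beside 41.4% and 4.14% of all tested genes; 7 of the 10 had a lower mean FPKM in KO. Fn1, fibronectin, was at 91.5 and 84.9 FPKM in the WT libraries, against 20.6 and 1.09 FPKM in the KO libraries (-3.73). S100a8 and S100a9, the calprotectin subunits that are also neutrophil markers, were at 440.5 and 287 against 151 and 107 FPKM and at 312 and 322 against 153 and 41.0 FPKM (-1.48 and -1.98). Bgn, the matrix proteoglycan biglycan, was at 90.7 and 87.35 FPKM in the WT libraries, against 89.4 and 8.55 FPKM in the KO libraries, low in KO replicate 2 only. The median of the list was -0.88, and -0.03 without KO replicate 2, when Fn1 was at -2.05, S100a9 at -1.05 and Bgn at 0.0060.

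**Figure D5:**
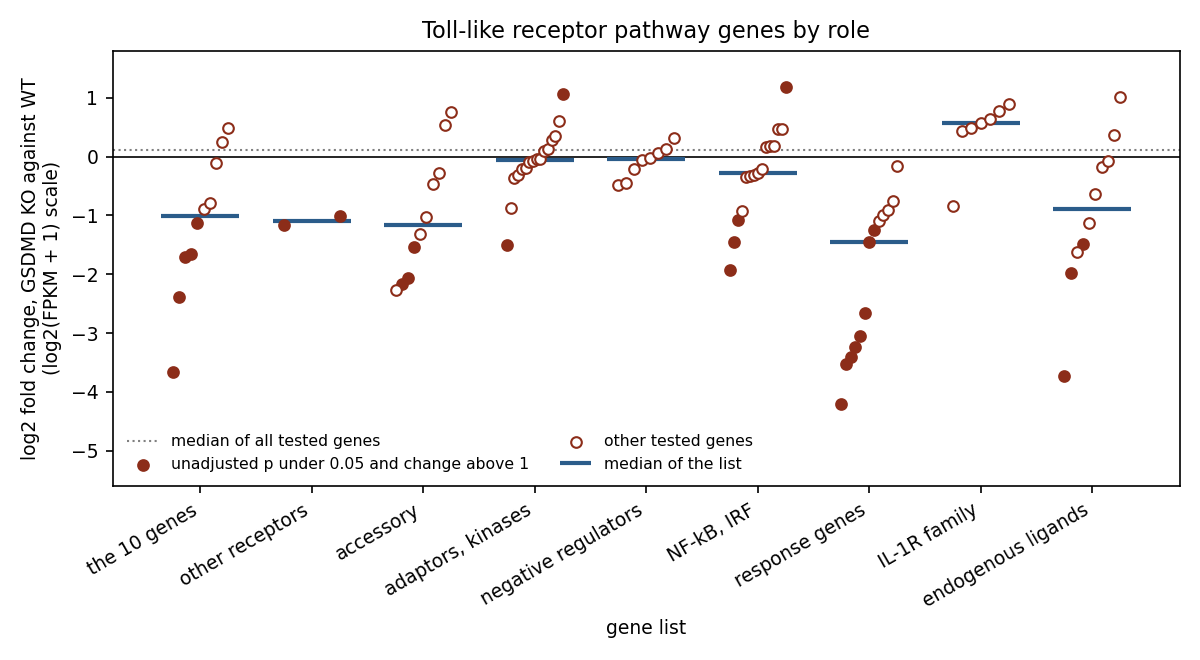
Log2 fold change of each tested gene, GSDMD KO against WT on the log2(FPKM + 1) scale, by list, with filled points at an unadjusted p under 0.05 and a change above 1 in size. The median (blue line) is -1.45 for the 13 response genes, of which 2 could only be lower, and -1.003 for the 10 genes, and near 0 for adaptors, kinases and negative regulators.

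The genes whose profile over the 4 libraries lay nearest to a member, by Euclidean distance of centred log2(FPKM + 1) values, differed between members. Nearest to Cd14 were Clec4d (distance 0.79), Ccl4 (0.82) and Clec4e (0.97); Clec4d and Clec4e are C-type lectin receptors of myeloid cells. Clec4e was at 12.1 and 11.04 FPKM in the WT libraries, against 0.674 and 0.253 FPKM in the KO libraries. Nearest to Tlr2 were the leukocyte receptor Lilr4b (0.15), Glipr1 (0.21) and Plek (0.25). Ncam1, Ifit1 and Igf2 were nearest to Tlr7 (0.07, 0.15 and 0.15). Tlr3 lay closest to 5830417I10Rik, Maml2 and Zbtb8a, at distances of 0.024 to 0.026. Among the 10 genes themselves the closest pair was Tlr4 and Tlr6 (0.36) and the most distant was Cd14 and Ly96 (4.41). A distance over 4 libraries describes those libraries only.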

How the data were processed

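Skin RNA was sequenced as paired 150-base reads in 4 libraries, 2 WT and 2 GSDMD KO, grouped by the labels. The authors deposited 1 gene table in FPKM, although its name says counts: 99.993% of the values above 0 are not whole. The submitters' processing notes name HISAT2 2.0.1, StringTie 2.0.6 and mm9; the paper names another read counter and DESeq2, whose counts were not analysed here. FPKM already carry the authors' division by length and depth.

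A count test had been planned if the table held counts; log2(FPKM + 1) was tested instead with limma 3.58.1 (R 4.3.3), genotype only, trended variance, in 13027 genes, those that reached 1 FPKM in 2 or more libraries. P-values were adjusted by Benjamini-Hochberg over all of them, and a call needed an adjusted p under 0.05 and a log2 fold change above 1 in size. "Unadjusted p of 0.05" in counts also needs a change above 1. The fit was tested on simulated data. Depth was estimated from the FPKM of 1 fragment on 1 kb, 0.0574 to 0.0783, in 2710 genes with 1 transcript. Coordinates are mm9, GENCODE M1, counted from 1. Single values were compared by exact two-sided permutation.

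The members and lists were chosen with earlier results of these data known. Beside the 10 members and Gsdmd, genes were named by rule: each tested gene of a pathway list of 6 or fewer, otherwise the 4 with the largest change, Toll-like receptors too low to test, the first 2 of marker lists (given here for macrophages, leukocytes and neutrophils, with sums alone for the other lists), the 3 nearest to Cd14, Tlr2, Tlr7 and Tlr3, and genes overlapping a member. Same-numbered libraries deviated with a correlation of -0.20 over 13027 genes and were not treated as pairs. Alternatives were the pseudocount, filter, scaling, variance trend, replicate block and leaving out each library.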

Additional observations from a re-analysis of the deposited data

How the results depend on the processing

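No gene was called at an adjusted p under 0.05 in limma as reported or under any alternative that kept all 4 libraries. At an unadjusted p under 0.05 with a change above 1, 539 genes were lower and 802 higher as reported, and 352 to 707 were lower and 628 to 1034 higher under those alternatives. Leaving out 1 library gave 0 to 1199 genes called lower and 0 to 859 called higher, with the highest counts when KO replicate 1 was left out (15 and 28 for KO replicate 2), and 242 to 1605 lower and 266 to 1412 higher at the unadjusted threshold, the fewest without WT replicate 2. Of the 10 genes, 2 to 7 were then lower at that threshold, 2 of them without WT replicate 1 and 3 when either WT replicate 2 or KO replicate 2 was left out, and their median ran from -1.40 to -0.67. The fits that leave 1 library in a group assume that it varies like the other group.

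The filter and pseudocount mattered most among the other settings. Without a filter 3 of the 10 genes were lower at the unadjusted threshold. Asking for 1 FPKM in all libraries left Cd14, Ly96, Tlr3 and Myd88 of the members, because it removes genes low in KO, and gave 1 lower member, a member median of 0.064 and 352 lower genes. A pseudocount of 0.1 gave a member median of -2.02. Scaling by median ratios moved the median of all genes from 0.11 to 0.01 and gave 707 lower and 632 higher genes, where the unscaled split was 539 and 802; the 10 genes' median was then -1.06. Upper-quartile scaling gave 697 and 628.

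The sign of each member's change was kept except for Myd88, which ran from -0.29 to 0.058 over the fits without 1 library (0.058 without WT replicate 2). Relative to the 8 leukocyte markers, Tlr1 went from 0.25 to -0.51 and Tlr7 from 0.78 to -0.16 with a pseudocount of 0.1, and Tlr13 from 0.19 to -0.40; with 1 library left out Tlr1 ran from -0.12 (without WT replicate 1) to 0.61 and Tlr13 from -0.10 (without KO replicate 2) to 0.48. The cause was not tested.

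With a replicate block, 5 of the 10 genes were lower at the unadjusted threshold, 686 genes in all were lower and 907 higher, and 0 passed the adjusted threshold. Crossing the pairing, an alternative chosen after seeing the data, gave 4 members, 681 lower and 819 higher genes. Depth limits Tlr1, Tlr7 and Tlr6 in KO replicate 2, at an estimated 5.90, 4.02 and 10.1 fragments. Outside the 10 genes it limits Tlr9, Tlr12 and Tlr11 there, at an estimated 2.96, 0.99 and 0 fragments. Intervals cover the spread of 2 libraries a group, and no saline-treated skin was analysed here.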
